A study of Mus musculus with 6 samples.

Results

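The transcripts of 10 network, beaded and fibril-associated collagen genes were followed in cultured mouse embryonic fibroblasts (MEFs), connective tissue cells grown from embryos. These genes, Col6a1, Col6a2, Col6a3, Col7a1, Col8a1, Col8a2, Col9a3, Col12a1, Col14a1 and Col16a1, were taken by name as the chains of collagens VI, VII, VIII, IX, XII, XIV and XVI, out of 56953 gene identifiers in the table. The comparison asked how these transcripts differed between 3 libraries labelled WT and 3 labelled GαqKO. The WT line carried no stated alteration, and the GαqKO line was described in the study's methods as lacking Gαq and Gα11, the alpha subunits through which Gq-coupled receptors signal. Both lines came from another laboratory and were grown without added treatment in the same serum-containing medium. Neither the age of the embryos nor whether a line is a single clone was given in the sources used here. Values are normalized counts, that is, gene counts divided by a size factor for each library.

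Between 9853000 and 12229175 reads on genes were recovered in 5 libraries, and those of GαqKO replicate 3 were not used here. The targeted genes went different ways. Gna11 had 2141, 2180 and 2123 normalized counts in WT replicates 1, 2 and 3 and 472, 464 and 419 in the GαqKO replicates (log2 fold change -2.25, adjusted p = 9.16e-13 from limma). Gnaq had 1665, 1660.2 and 1747 in WT and 1959.7, 1931 and 1888 in GαqKO (log2 fold change 0.19, adjusted p = 0.00212 from limma). Its transcript was thus not lower in the libraries labelled GαqKO. The paper reported, by Western blot and immunofluorescence, that Gαq protein was lacking in its GαqKO MEFs. Transcript values do not measure the protein. Ddx3y, a Y-linked gene, had 1214, 1139 and 1239 in WT and was listed at 0 in each GαqKO library, so the lines differed in more than the targeted genes, and the genotype cannot be told apart from other differences between them. Of 12 fibroblast markers 10 were tested, 5 were higher and 5 lower in GαqKO, and their summed level was 92448 to 99323 in WT and 70204 to 73797 in GαqKO. The higher ones were Pdgfra, Pdgfrb, Thy1, S100a4 and Dcn, and the lower ones were Vim, Col1a1, Col1a2, Fn1 and P4hb. Between the group means Pdgfra went from 19.6 to 2320 and Col1a1 from 16671 to 5774. Lum and Fap stayed under 5 normalized counts in every library.

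Collagens are triple helices of 3 chains, and the chains that a cell transcribes limit which helices it can build. Collagen VI joins a chain from each of its main genes into a helix that stacks into beaded microfilaments around cells, collagen VIII forms hexagonal sheets in basement-membrane-like matrix, and collagen VII makes the anchoring fibrils under the epidermis. The fibril-associated collagens IX, XII, XIV and XVI make no fibrils of their own but sit on the surface of fibrils of other collagens, where they link them to each other and to the surrounding matrix.

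Most of the 10 genes were lower in the libraries labelled GαqKO, and the chains of a single collagen did not keep step. All 10 passed the filter on low values, which asked for 10 or more normalized counts in 3 or more libraries. Col8a2 passed it through WT, the group where it is high, as its GαqKO values were 6.6, 11.6 and 5.0. With limma over 14096 genes and an adjusted p under 0.05, 6 were lower (Col6a1, Col6a2, Col6a3, Col8a2, Col12a1 and Col16a1), 2 were higher (Col8a1 and Col9a3) and 2 did not pass the test (Col7a1 and Col14a1). Over all genes tested, 34.1% were lower and 31.8% were higher by this rule, and 65.8% passed it in either direction. Asking also for a log2 fold change beyond 1 or -1 left 2 higher and 2 lower collagens (Col6a3 and Col8a2), where 10.2% of all genes were higher and 10.5% were lower. With 10 or more normalized counts asked in every library, Col8a2 was not tested, and 5 were lower, 1 of them past -1. The groups did not overlap for 8 of the 10, against 69.6% of all genes tested. The median log2 fold change of the 10 was -0.57, and that of all genes was -0.01. In bulk libraries fewer cells of a type and less RNA per cell cannot be told apart. On the reads of the 5 libraries, edgeR called the same numbers of members, 2 higher and 6 lower, beside 30.2% and 31.3% of all genes it tested. DESeq2 on the same reads also called 2 higher and 6 lower, beside 20.6% and 22.5%.

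**Figure D1:**
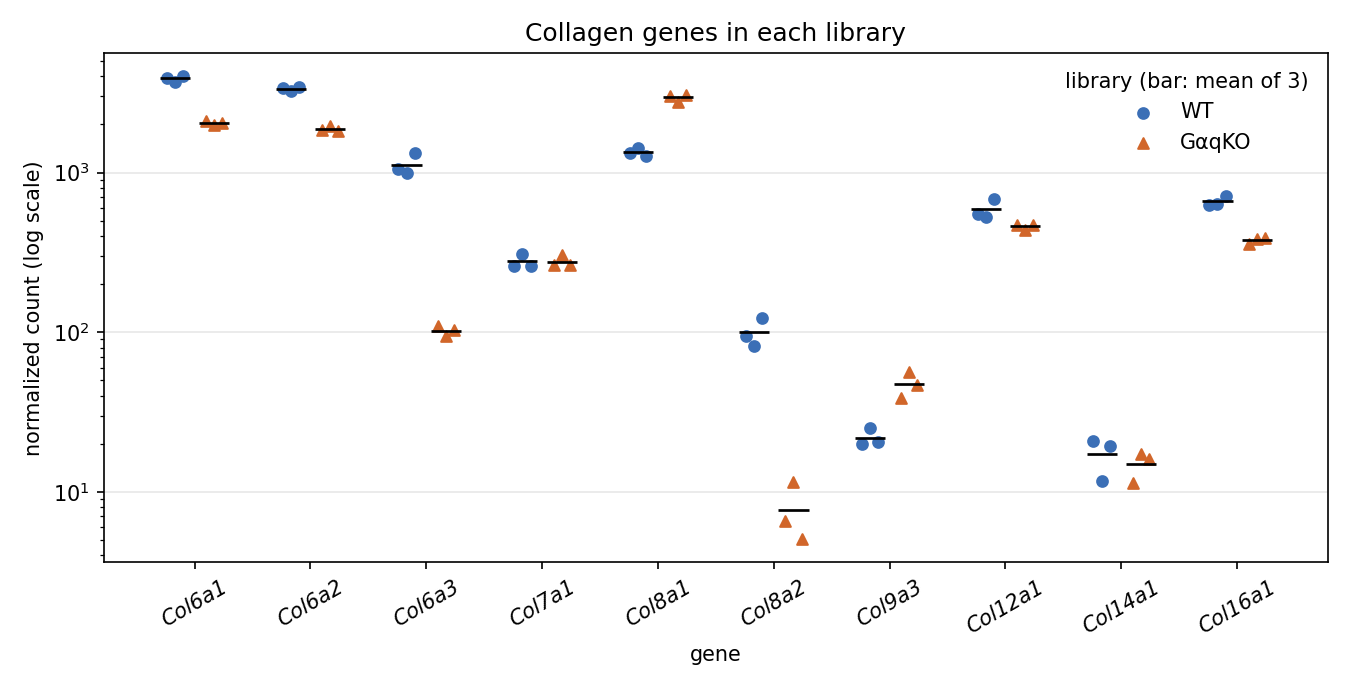
Normalized counts (log axis) of the 10 collagen genes in each library, with WT as circles, GαqKO as triangles and a bar at the mean of 3. Col6a3 and Col8a2 show the widest gaps below WT, Col8a1 and Col9a3 lie above WT, and the points of Col7a1 and Col14a1 overlap.

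Collagen VI, the beaded collagen of the space around cells, fell in all 3 of its chains, but by very different amounts. Col6a1 (ENSMUSG00000001119.8; GRCm39 chromosome 10, 76543440 to 76562283), which encodes the α1 chain, had 3919, 3714 and 4015 normalized counts in WT and 2106, 1979.5 and 2036 in GαqKO. Each GαqKO library lay below each WT library, and the WT mean was 1.90-fold the GαqKO mean (log2 fold change -0.93, SE 0.046, adjusted p = 5.79e-10 from limma). Col6a2 (ENSMUSG00000020241.14; chromosome 10, 76429660 to 76459549), the α2 chain, lies 83.9 kb from Col6a1 on the same strand. It had 3365, 3224 and 3454 normalized counts in WT and 1849, 1962 and 1815 in GαqKO, again without overlap (log2 fold change -0.84, SE 0.047, adjusted p = 2.25e-09 from limma).

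Col6a3 (ENSMUSG00000048126.17; chromosome 1, 90693645 to 90771780) encodes the long α3 chain, which joins the other two in the helix and whose end is cut off as endotrophin. It had 1055, 994 and 1319 normalized counts in WT and 109, 94.8 and 103 in GαqKO. The highest GαqKO library thus stayed far under the lowest WT library, and the WT mean of 1122.5 ± 173 (SD, n = 3) was 11.0-fold the GαqKO mean of 102 ± 7.07 (SD, n = 3). The log2 fold change was -3.44 (SE 0.11, adjusted p = 5.05e-12 from limma), and 3.19% of the genes tested had a lower one. Behind these values stood 1010, 1023 and 1296 recovered reads in WT and 116 and 82 in GαqKO replicates 1 and 2. The WT library with the highest value, replicate 3, was also the highest of the WT libraries for the other 5 members that were lower, but not for Col8a1, Col7a1, Col9a3 or Col14a1.

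The sequence just upstream of each annotated gene is shown for the chains of collagens VI and VIII that moved unequally, starting with collagen VI. Sequences come from the RefSeq promoter table of GRCm38.p6, which held 7 of the 10 genes (not Col9a3, Col12a1 and Col14a1), and each was placed on GRCm39 by its single exact match. Each window was the 250 bases before the listed start, and the part outside annotated exons is printed 5′ to 3′. Capitals mark matches to the GC box (GGGCGG on either strand), the motif bound by SP-family factors. For Col6a2, 1 of the 2 listed starts was used.
Col6a2 (GRCm39 chr10:76459550-76459714, minus strand): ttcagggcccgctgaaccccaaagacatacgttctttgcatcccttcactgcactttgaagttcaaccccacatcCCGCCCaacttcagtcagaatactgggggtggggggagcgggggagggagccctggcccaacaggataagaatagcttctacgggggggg
Col6a3 (GRCm39 chr1:90771781-90771943, minus strand): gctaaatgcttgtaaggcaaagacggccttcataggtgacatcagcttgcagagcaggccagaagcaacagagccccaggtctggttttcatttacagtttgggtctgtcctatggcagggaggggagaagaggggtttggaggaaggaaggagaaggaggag

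The Col6a2 window held 1 GC box and the Col6a3 window none, while 32.7% of 32851 mouse promoters of the same length held at least 1. Neither held a TATA box (TATAAA, in 12.4% of promoters), a CCAAT box (CCAAT, in 33.8%), an AP-1 site (TGANTCA, in 6.75%), a TEAD site (GGAATG, in 12.6%) or an SRF CArG box (in 1.47%), searched on both strands. The Col6a1 window lay wholly inside annotated exons of that gene and is not printed, and it held 1 AP-1 site, at positions -90 to -84 from the start. These matches are letters in a window, and binding was not measured.

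Collagen VIII, whose short chains assemble into hexagonal networks, moved in opposite directions in its pair of genes. Col8a1 (ENSMUSG00000068196.6; chromosome 16, 57444621 to 57575100), the α1 chain, had 1326, 1425 and 1270.3 normalized counts in WT and 3033, 2758 and 3082 in GαqKO. Every GαqKO library lay above every WT library, with means of 1341 ± 78.4 and 2957 ± 175 (SD, n = 3 each), a 2.21-fold rise (log2 fold change 1.14, SE 0.056, adjusted p = 6.14e-10 from limma). Col8a2 (ENSMUSG00000056174.9; chromosome 4, 126180559 to 126208123), the α2 chain, had 95.0, 81.6 and 122 normalized counts in WT and 6.6, 11.6 and 5.0 in GαqKO. The groups lay far apart, and the WT mean was 12.9-fold the GαqKO mean (log2 fold change -3.58, SE 0.31, adjusted p = 1.85e-07 from limma). Of the 10 collagens it had the lowest fold change, at rank 421 from the lowest among 14096 genes, with Col6a3 at rank 451. Their order is not firm, since with a pseudocount of 5 Col8a2 had -3.05 and Col6a3 -3.39. The GαqKO level of Col8a2 rests on few reads, 7 and 10 in replicates 1 and 2, against 91, 84 and 120 in WT. The log2(normalized count + 1) scale understates a change at such low counts.

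The same upstream stretches of the collagen VIII genes, with GC boxes in capitals, are shown because these chains moved apart.
Col8a1 (GRCm39 chr16:57575101-57575350, minus strand): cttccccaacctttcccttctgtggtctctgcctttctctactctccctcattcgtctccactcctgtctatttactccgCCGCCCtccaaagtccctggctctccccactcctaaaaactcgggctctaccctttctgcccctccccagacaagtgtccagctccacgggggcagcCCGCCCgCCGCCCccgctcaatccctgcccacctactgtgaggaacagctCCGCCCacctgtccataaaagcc
Col8a2 (GRCm39 chr4:126180337-126180558, plus strand): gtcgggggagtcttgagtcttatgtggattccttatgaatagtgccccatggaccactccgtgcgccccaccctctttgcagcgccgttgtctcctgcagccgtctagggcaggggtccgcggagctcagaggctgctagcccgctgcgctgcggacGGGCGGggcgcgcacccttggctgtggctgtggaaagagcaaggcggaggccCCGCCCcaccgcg

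Both windows held 4 GC boxes, and 4.09% of all promoters held at least 4. In Col8a2, 2 of the 4 overlap each other, at positions -19 to -14 and -15 to -10, and lie in the annotated exon that is not printed. GC made up 60.8% of the Col8a1 window and 70.0% of the Col8a2 window, beside a median of 52.4% over all promoters. None of the other 5 motifs was found in either window.

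**Figure D2:**
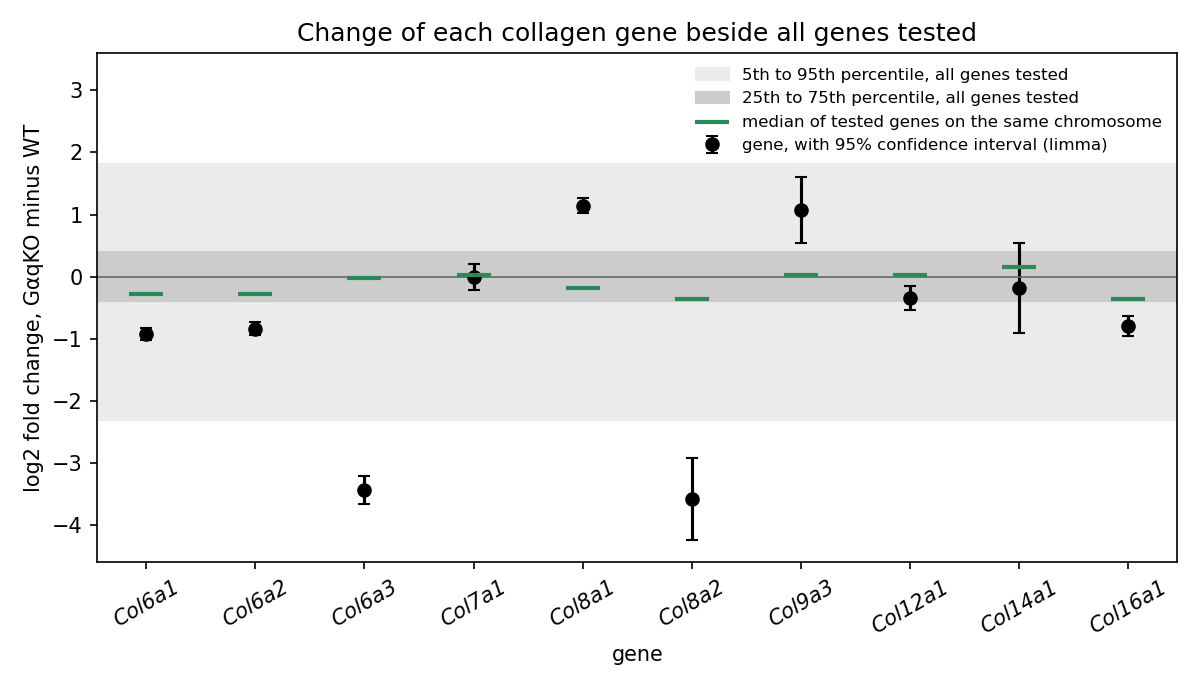
Log2 fold change (GαqKO minus WT) of each collagen gene with its 95% confidence interval from limma, over bands that hold the middle 50% and 90% of all genes tested, and with the median of the gene's chromosome as a green line. Col6a3 and Col8a2 lie below the lower edge of the wide band at -2.31, and no member lies above its upper edge at 1.81.

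The balance between chains was compared per kb of exon, as the log2 ratio of a pair within each library, so that the scaling of libraries drops out. The log2 ratio of Col6a3 to Col6a1 was -2.94, -2.95 and -2.65 in WT and -5.32, -5.43 and -5.35 in GαqKO. Per kb, the Col6a3 transcript thus went from 0.139 of Col6a1 to 0.0243 of it (geometric means). The log2 ratio of Col6a2 to Col6a1 was nearly level, at -1.13, -1.12 and -1.13 in WT and -1.10, -0.92 and -1.08 in GαqKO. Its difference of 0.09 was 0.04 without GαqKO replicate 2. With the length of the longest transcript, the mean log2 ratio of Col6a2 to Col6a1 was -0.34 in WT and -0.25 in GαqKO. The level of this ratio thus depends on the length taken, while the length cancels from its difference between the groups. The log2 ratio of Col8a1 to Col8a2 was 3.17, 3.49 and 2.74 in WT and 8.21, 7.26 and 8.62 in GαqKO, which took Col8a1 from 8.78 to 262 times Col8a2 (geometric means). The difference of 4.90 was 4.19 with a pseudocount of 5. With the length of the longest transcript the ratios were 12.2 in WT and 364 in GαqKO, while the length cancels from the difference. The size of the ratios thus depends on the length taken, and that of their difference on the pseudocount. For these 3 pairs the groups did not overlap, and each gave an exact permutation p of 0.1 (two-sided), the smallest that 3 against 3 allows, so none could reach 0.05. The log2 ratio of the related fibril-associated chains, Col12a1 to Col14a1, was 3.59, 4.38 and 4.02 in WT and 4.26, 3.54 and 3.75 in GαqKO, which overlapped (exact permutation p = 0.7, two-sided). With p-values of 0.1, 0.1, 0.1 and 0.7 for the 4 ratios and 0.1 for the share described next, no Benjamini-Hochberg adjustment of these 5 tests could bring any under 0.05.

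**Figure D3:**
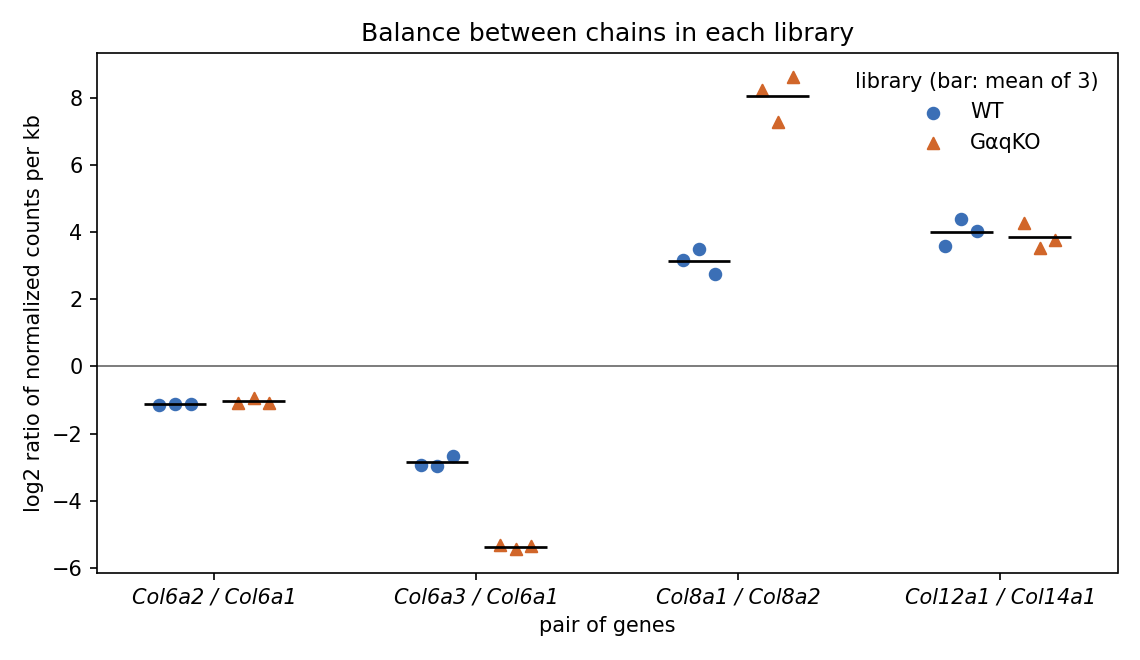
Log2 ratio of normalized counts per kb for 4 pairs of collagen genes in each library, with WT as circles, GαqKO as triangles and a bar at the mean of 3. The ratio of Col6a3 to Col6a1 dropped by 2.52 and that of Col8a1 to Col8a2 rose by 4.90, while Col6a2 to Col6a1 differed by 0.09 and Col12a1 to Col14a1 overlapped.

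Summed per kb over the 10 genes, these collagens came to 1416 ± 52.8 in WT and 1029 ± 20.2 in GαqKO (SD, n = 3 each). Collagen VI made up 75.6, 73.8 and 75.4% of this sum in WT and 51.6, 52.2 and 50.2% in GαqKO, a drop from 74.9 to 51.3% between the means (exact permutation p = 0.1, two-sided, the smallest possible). Collagen VIII took the opposite course, from 13.4, 14.5 and 12.7% to 37.3, 35.2 and 38.0%. Collagen XVI went from 6.43 to 5.08%, collagen XII from 2.70 to 2.93%, collagen VII from 1.91 to 2.61%, collagen IX from 0.342 to 1.02% and collagen XIV from 0.173 to 0.207% (group means). Shares add to a fixed total, so a rise in some need not be a rise in level. Taking the length of the longest transcript instead of all exons gave 73.5 and 48.4% for collagen VI.

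**Figure D4:**
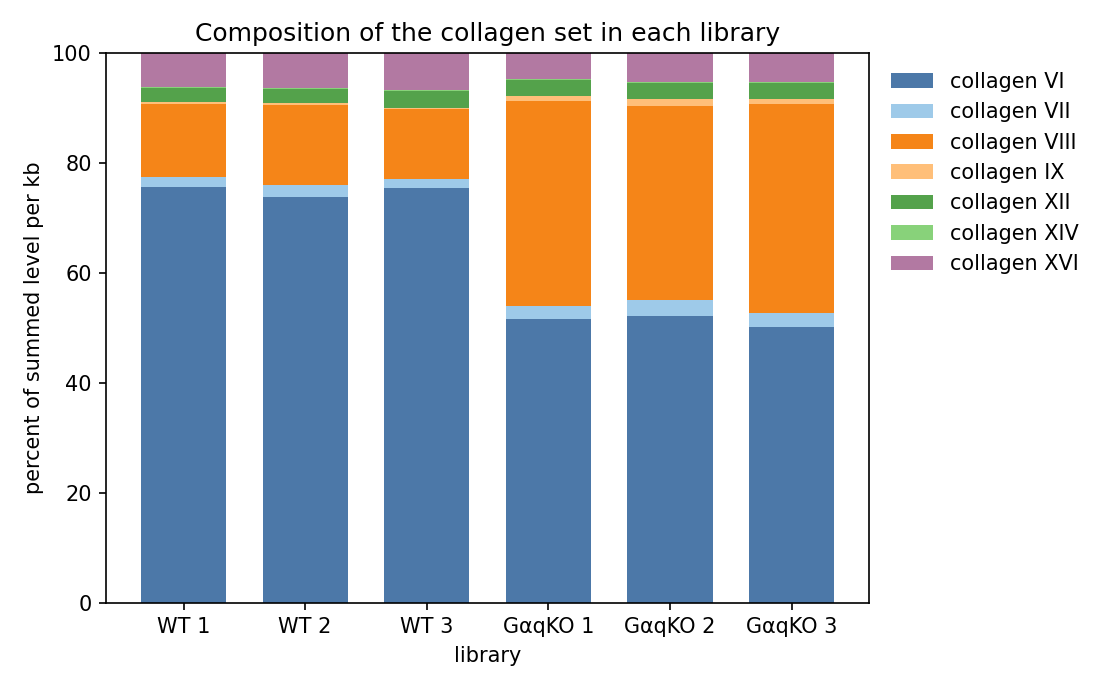
Percent of the summed level per kb that each collagen contributed in each library, as stacked bars of the 3 WT and 3 GαqKO libraries. Collagen VI fills 73.8 to 75.6% of the WT bars and 50.2 to 52.2% of the GαqKO bars, and collagen VIII fills 12.7 to 14.5% and 35.2 to 38.0%.

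The order of the levels per kb changed with these shifts. In WT the mean was 664 normalized counts per kb for Col6a1, 304 for Col6a2, 171 for Col8a1, 93.1 for Col6a3, 91.1 for Col16a1, 38.4 for Col12a1, 26.96 for Col7a1, 19.8 for Col8a2, 4.82 for Col9a3 and 2.46 for Col14a1. Of these neighbours, Col6a3 and Col16a1 had ranges that met. In GαqKO, Col8a1 led at 378, with a range that met that of Col6a1 at 349. Col6a2 followed at 171, Col16a1 at 52.2, Col12a1 at 30.1 and Col7a1 at 26.8, the last pair with ranges that met. The lowest were Col9a3 at 10.4, Col6a3 at 8.48, Col14a1 at 2.12 and Col8a2 at 1.53 normalized counts per kb, with meeting ranges for Col9a3 and Col6a3 and for Col14a1 and Col8a2. With the length of the longest transcript, Col6a3 and Col16a1 traded places in WT, and since the ranges of several neighbours met, single places are not firm.

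Among the fibril-associated collagens, a pair fell, 1 rose from a low level and 1 did not pass the test. Col16a1 (ENSMUSG00000040690.16; chromosome 4, 129941154 to 129993076), a homotrimer found in skin and cartilage matrix, had 622, 636 and 718 normalized counts in WT and 358, 385 and 390 in GαqKO. The groups did not overlap, and the WT mean was 1.74-fold the GαqKO mean (log2 fold change -0.80, SE 0.074, adjusted p = 4.25e-07 from limma). Col12a1 (ENSMUSG00000032332.18; chromosome 9, 79506268 to 79626135), which coats collagen I fibrils of tendon and other dense connective tissue, had 549, 529 and 684 normalized counts in WT and 471, 439 and 472 in GαqKO. The lowest WT library lay not far above the highest GαqKO library (log2 fold change -0.34, SE 0.090, adjusted p = 0.00431 from limma). Without WT replicate 3, the highest, the log2 fold change of Col12a1 was -0.23, and it still passed the test.

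Col14a1 (ENSMUSG00000022371.17; chromosome 15, 55171140 to 55384199), the closest relative of Col12a1, was scarce in both lines. It had 20.9, 11.7 and 19.3 normalized counts in WT and 11.3, 17.3 and 16.1 in GαqKO, on 12 to 20 recovered reads a library. The groups overlapped, and the log2 fold change was -0.18 with a 95% confidence interval of -0.91 to 0.55 (adjusted p = 0.652 from limma). Changes in either direction within this interval are compatible with these values, so a lack of change was not shown.

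Col9a3 (ENSMUSG00000027570.16; chromosome 2, 180239583 to 180264063) encodes the α3 chain of collagen IX, which in cartilage joins the chains of Col9a1 and Col9a2 on collagen II fibrils. It had 19.8, 25.3 and 20.4 normalized counts in WT and 38.5, 56.7 and 46.3 in GαqKO. All GαqKO libraries lay above WT, with a 2.16-fold higher mean (log2 fold change 1.07, SE 0.25, adjusted p = 0.00164 from limma), on 19 to 26 recovered reads in WT and 41 and 49 in GαqKO replicates 1 and 2. Without GαqKO replicate 2 the log2 fold change was 0.93. The partner chains were almost absent. Col9a1 was listed at 0 in each WT library and had 4.7, 2.3 and 0 normalized counts in GαqKO. Col9a2 had 5.2, 0 and 2.0 in WT and was listed at 0 in each GαqKO library. Of 10 chondrocyte markers 3 were tested, 1 was higher (Sox9, 1602 to 2464 between the means) and 1 lower (Col11a2, 43.2 to 13.1). Hapln1 did not pass the test. The sum over the list, nearly all of it Sox9, was 1569 to 1770 in WT and 2453 to 2516 in GαqKO. Acan, Col2a1 and Matn1, which define cartilage cells, stayed under 7 normalized counts in every library, and the part of such cells in the Col9a3 result was not tested. Of the exon length of Col9a3, 11.8% overlaps the antisense gene Tcfl5, which had 0, 0 and 0 normalized counts in WT and 0.94, 8.1 and 5.0 in GαqKO, and the strand setting of the counting was not given in the sources used here.

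Col7a1 (ENSMUSG00000025650.14; chromosome 9, 108782647 to 108813943), the anchoring-fibril collagen that keratinocytes and dermal fibroblasts secrete, had 261, 311 and 261 normalized counts in WT and 262, 303 and 264 in GαqKO. The GαqKO range lay within the WT range, and the means were 277 ± 28.9 and 276 ± 23.1 (SD, n = 3 each). The log2 fold change was -0.0047, with a 95% confidence interval of -0.22 to 0.21 (adjusted p = 0.970 from limma). Of 10 markers of keratinocytes or other epithelium 5 were tested, 4 were lower and 1 higher in GαqKO, and their sum was 1155 to 1272 in WT and 42.3 to 76.3 in GαqKO. Krt19 went from 547 to 4.53, Krt14 from 258 to 1.11 and Cdh1 from 238 to 7.96 between the means, while Trp63, the 1 that was higher, went from 3.07 to 18.7. Col17a1 did not pass the filter, at 1.37 and 10.2 between the means, and Krt5 was at 0 or under 1 in every library. The part of these markers in the level of Col7a1 and of the other collagens was not tested. The remaining marker lists varied. Smooth muscle and pericyte markers summed to 729.9 to 905 in WT and 320.2 to 359 in GαqKO, with 2 of 4 tested lower. Most of this sum was Acta2, which went from 715 to 266 between the means. Tagln was also lower (43.1 to 6.64), and Des and Notch3 did not pass the test. Neural crest glia markers summed to 705 to 785 and 366 to 392, with 3 of 4 tested lower and Sox10 and Foxd3 at or near 0. Leukocyte markers summed to 209.7 to 225 and 439 to 466, with 1 higher and 1 lower of 3 tested and Itgam and Tyrobp listed at 0 throughout, and endothelial markers to 18.5 to 26.5 and 21.6 to 31.2, with 1 tested.

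The surroundings of the genes on the chromosome differed in how they moved. The 667 genes tested on chromosome 10, which holds Col6a1 and Col6a2, had a median log2 fold change of -0.28, and the 860 on chromosome 4, which holds Col8a2 and Col16a1, had -0.35. The medians were -0.19 on chromosome 16 (Col8a1), -0.02 on chromosome 1 (Col6a3), 0.02 on chromosome 9 (Col7a1 and Col12a1), 0.03 on chromosome 2 (Col9a3) and 0.16 on chromosome 15 (Col14a1). With the median of its chromosome subtracted, a step chosen after seeing the data, Col6a1 had -0.65, Col6a2 -0.55, Col16a1 -0.44, Col8a2 -3.22, Col6a3 -3.41 and Col8a1 1.33. The falls of Col6a3 and Col8a2 were far larger than the medians of their chromosomes, and the fall of Col16a1 lay closer to its own. The part of such shifts in the collagen values was not tested.

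Within 1 Mb on either side, a window also chosen after the values were seen, the neighbours of Col9a3 moved with it. Of 36 other tested genes there, 33 were higher and 1 was lower, with a median log2 fold change of 0.94, close to the 1.07 of Col9a3. The nearest expressed genes were Ogfr (1.23), Mrgbp (1.22), Dido1 (0.62) and Gid8 (0.88), each past the limma test. Around Col16a1, 23 of 31 were lower and 2 higher, with a median of -0.38. Col8a1 went against its neighbours, of which 2 were higher and 6 lower of 11 (median -0.30). Around Col6a3, 8 were higher and 5 lower of 18 (median 0.08), around Col8a2 3 higher and 14 lower of 27 (median -0.27), and around Col6a1 as around Col6a2 7 higher and 13 lower of 31 (median -0.20).

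The genes with the most similar pattern were taken as those with the smallest Euclidean distance over the 6 libraries, in log2(normalized count + 1) with the mean removed, among 11951 named genes. Col6a1 was nearest to Mmp2 (distance 0.063) and Ccnd2 (0.066), and Col6a2 to Stx7 (0.064) and Strbp (0.077). Col6a3 was nearest to Ptpn7 (0.21) and Nrep (0.23), Col8a1 to Ccna2 (0.11) and Dnph1 (0.12), and Col8a2 to Hdx (0.35) and Lgr6 (0.36). Col16a1 was nearest to Rbms2 (0.076) and Snap29 (0.10), Col12a1 to Nprl3 (0.090) and Cdc42bpb (0.099), and Col7a1 to Reck (0.057) and Ghdc (0.098). The scarcer Col9a3 was nearest to Tmem86a (0.20) and C78859 (0.25), and Col14a1 to Far2 (0.26) and Lce1h (0.34). With 6 libraries in separate groups, the distance is set mainly by the size of the group difference.

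The other chains of the same collagen classes were scarce. Of 11 listed, 10 were in the table and 2 passed the filter, Col20a1 at 32.9 ± 6.04 and 23.9 ± 5.99 normalized counts (SD, n = 3; adjusted p = 0.156 from limma) and Col28a1 at 9.04 ± 2.42 and 7.36 ± 2.65 (adjusted p = 0.579 from limma). The alternative collagen VI chains Col6a4, Col6a5 and Col6a6 stayed under 11 normalized counts in every library. Of the fibrillar collagens, whose fibrils carry the fibril-associated ones, 9 of 10 tested were lower and 1 was higher, with a median log2 fold change of -1.59. Among them Col5a2 (-1.68) and Col5a1 (-1.55) fell, and Col11a1 went from 435 to 3.10 between the means. The 1 that rose, Col24a1, from 23.0 to 114, is named after its value was seen. The basement membrane collagens tested, 5 of 8, were all lower, with Col4a5 at -1.42 and Col4a6 going from 832 to 4.82 between the means.

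The 9 tested cell surface receptors for these collagens split, with 4 higher and 5 lower, beside the 31.8% and 34.1% of all genes. The anthrax toxin receptors, which bind collagen VI, went opposite ways. Antxr1 had 448, 452 and 484 normalized counts in WT and 283, 265 and 259.8 in GαqKO (log2 fold change -0.78, adjusted p = 8.93e-07 from limma). Antxr2 had 544, 519.7 and 432 in WT and 1284, 1156 and 1202 in GαqKO (log2 fold change 1.29, adjusted p = 7.14e-09 from limma). Cspg4, the NG2 proteoglycan that binds collagen VI, did not pass the filter, with at most 5.8 normalized counts. Among the integrin chains Itgb1 rose by 0.60, Itga10 by 0.56 and Itga2 by 2.44 on the log2 scale, the last from 4.37 to 24.4 normalized counts, and Itga11 fell from 24.3 to 11.9 normalized counts, while Itga1 did not pass the filter. For Itga10, 35.7% of the exon length overlaps other genes. The discoidin domain receptors, which bind collagen helices, were both lower, Ddr1 by far (-1.94) and Ddr2 a little (-0.18), and Mcam went from 734 to 7.62 between the means.

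Matrix partners and linkers had 4 higher, 7 lower and 3 not called of 14 tested, with a median of -0.29. Dcn, the proteoglycan decorin that binds collagens VI and XIV, rose from 32.05 to 1663 between the means, and Postn from 71.2 to 426. Thbs1 (-2.79), the matrix glycoprotein thrombospondin, fell, and Fmod went from 203 to 4.71. Collagen assembly and secretion genes had 5 higher, 8 lower and 5 not called of 18 tested, with a median of 0.03. P3h3 (1.35) rose, and Plod2 (-1.20), a lysyl hydroxylase, and P3h4 (-1.10) fell, while Serpinh1, the collagen chaperone HSP47, had a log2 fold change of 0.03. Genes of processing and breakdown had 5 higher, 7 lower and 1 not called of 13 tested, with a median of -0.42. Mmp9 rose from 12.1 to 235, and the procollagen proteases Adamts3 (-2.92) and Adamts2 (-1.58) fell.

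**Figure D5:**
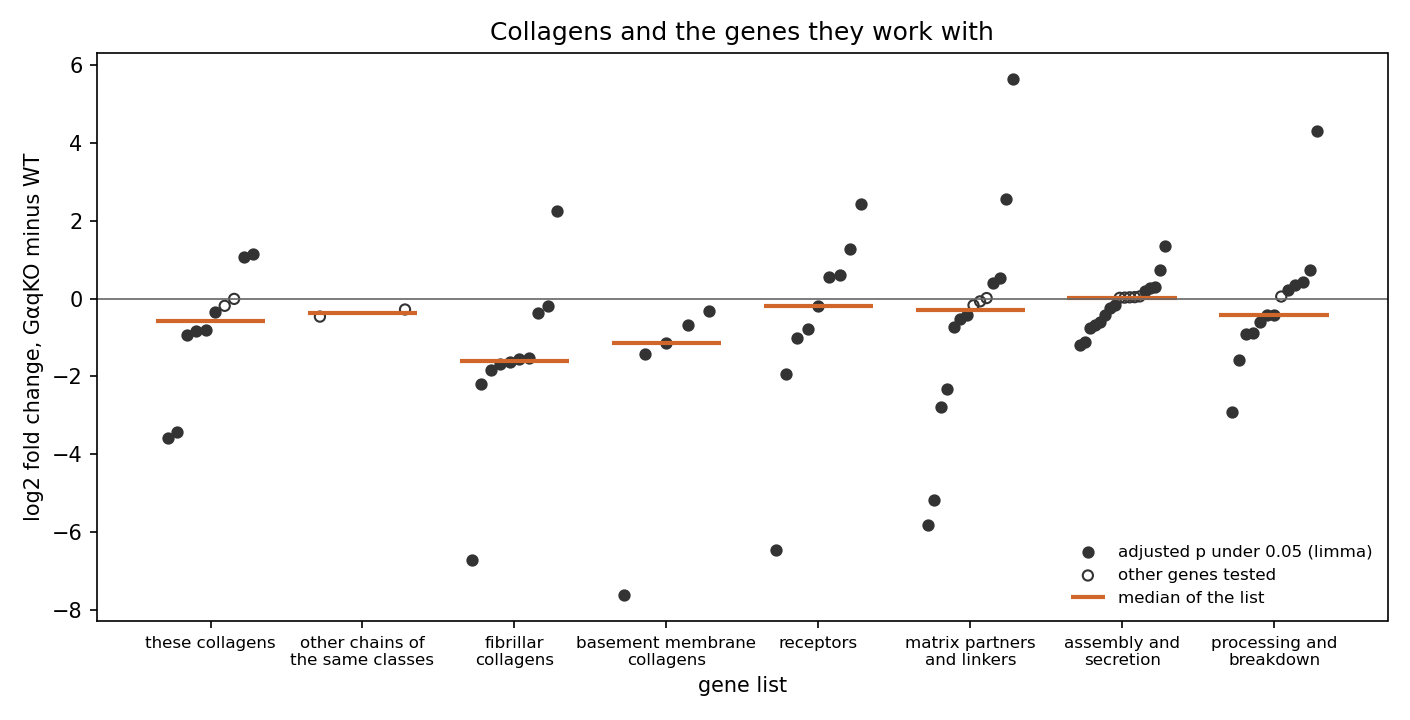
Log2 fold change (GαqKO minus WT) of every tested gene in the collagen set and in 7 lists of related genes, filled where the adjusted p from limma was under 0.05, with a bar at each median. The 10 collagens have a median of -0.57, between the basement membrane collagens at -1.14 and the genes of processing and breakdown at -0.42.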

How the data were processed

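Poly-A RNA of MEFs was sequenced by the authors as stranded paired-end libraries, 3 labelled WT and 3 labelled GαqKO, which the study calls biological replicates. The labels do not say whether they came from separate cultures, so p-values measure the spread between these libraries. The paper's methods name Rbowtie2, GRCm39, featureCounts on GENCODE release 32 and DESeq2, without versions, and the submitters' processing notes name featureCounts and GRCm39. The authors deposited a signal, counts per gene divided by a size factor per library. Symbols, coordinates and exon lengths came from GENCODE release 39 (56310 of 56953 identifiers matched).

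Whole reads were recovered in 5 libraries (100.0% of values whole within 0.01). Those of GαqKO replicate 3 were not used. Replicates differed by more than counting noise (chi-square per gene 2.44 to 5.50).

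The members, lists and thresholds were chosen with earlier results of these data known. limma 3.58.1 with a trend was fitted to log2(normalized count + 1) of all 6 libraries, without covariates, over the 14096 genes that reached 10 normalized counts in 3 or more libraries, and p-values were adjusted over them by Benjamini-Hochberg. Fold changes are on that scale. Chain ratios and the share of collagen VI were compared by exact permutation tests, which give at least 0.1 with 3 against 3. edgeR 4.0.16 and DESeq2 1.42.0 were run on recovered reads. Beside the 10 collagens, the named genes were Gnaq, Gna11, every tested receptor, the 2 nearest genes of each member by pattern and, in each related list, up to 3 rises and 3 falls past both thresholds (adjusted p 0.05, log2 fold change 1) whose mean reached 100 normalized counts. Ddx3y, Tcfl5, neighbouring genes, partner chains, and marker and related-list genes outside this rule were named after their values were seen. A gene that this rule selects is not reported here. The fit was tested on simulated data. R 4.3.3 and Python 3.11.15 were used.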

Additional observations from a re-analysis of the deposited data

How the results depend on the processing

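The numbers of members higher (2) and lower (6) were kept under both other scalings, both other pseudocounts, no filter, no trend, both count tests and each library left out (limma on the 5 libraries of the count tests is the fit without GαqKO replicate 3). With at least 10 normalized counts in every library 5 were lower, since Col8a2 was not tested. Past a log2 fold change of 1, 1 instead of 2 was higher with a pseudocount of 5 (range with single libraries left out 1 to 2, 1 without GαqKO replicate 2), since Col9a3 then had 0.95 and 0.93, and 1 instead of 2 was lower with the stricter filter.

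The log2 fold change of Col7a1, which passed no test, changed sign: 0.0045 with TMM scaling, 0.017 with upper-quartile scaling, 0.032 with edgeR, 0.027 with DESeq2 and with limma on 5 libraries, and -0.073 to 0.079 with single libraries left out. The difference between groups in the log2 ratio of Col12a1 to Col14a1 ran from -0.354 to 0.0436 with single libraries left out, above 0 without WT replicate 2 (0.0436) or GαqKO replicate 2 (0.0078). For both, the cause was not tested. Of 159 single-gene values with a test under alternatives, each fit counted once, 152 kept their direction and call, and the other 7 were of Col7a1. With no filter, the stricter filter, the replicate block or no trend, the fold changes equal those of the main fit. There only the call could change.

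Same-numbered libraries did not deviate together (correlations -0.05, -0.15 and -0.06). Whether same-numbered libraries were grown or prepared together is not known, and these correlations cannot decide it. A replicate block gave 4324 higher and 4638 lower genes in place of 4479 and 4800, and among the members 2 higher and 6 lower as before. Col8a2, Col9a3 and Col14a1 rest on few reads, which limits the precision of their fold changes.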
